A study of Homo sapiens with 2 samples.

Results

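The S100 calcium-binding proteins were followed in MDA-MB-231 cells, a triple-negative human breast cancer cell line in long-standing use, grown on laminin-rich matrix (3D lrECM). One array held RNA of cells irradiated with 2 Gy on each of 4 days (2 Gy x 4), and another array held RNA of unirradiated cells (0 Gy), so there was 1 array per condition, 2 in all. The members were the 10 genes S100A2, S100A3, S100A4, S100A6, S100A7, S100A8, S100A9, S100A10, S100A11 and S100A13, chosen as a family and not by their values. Earlier results of these data were known when they were chosen. Probes were found by the current or a former gene symbol. This gave 9 probes for 9 genes, 1 probe a gene, among 24456 usable gene probes, and none was marked as poor by the scanner. S100A7 was not analysed on the arrays, and only its promoter window was searched. Every comparison is the ratio of 2 Gy x 4 over 0 Gy. With 1 array per condition the ratios have no replicate check and no test, and a difference between the cultures cannot be told apart from an effect of irradiation.

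S100 proteins are small proteins with EF-hand loops that bind calcium. Most form dimers that open a binding face for partner proteins when calcium rises, and some are also released and act on cell-surface receptors such as RAGE. Many of their genes lie in a cluster on chromosome 1. In breast cancer cells several members are known for links to motility, annexin binding and protease recruitment.

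None of the 8 S100 probes with a usable ratio reached a 1.5-fold difference between the arrays in 2 sets of values. These were the background-corrected and quantile-normalized spot medians and the series value table. Without scaling S100A13 passed 1.5-fold, and with the local background subtracted 4 members did. Of 22068 probes seen above the blank spots of both arrays, and not saturated, 1.16% were at least 1.5-fold lower and 0.326% at least 1.5-fold higher in the normalized values, so a count of 0 among 8 is no result particular to these genes. By the series value table, the shares of the same probes were 7.26% lower and 4.40% higher. The normalized ratios ran from 0.716 for S100A13 to 1.24 for S100A11, and 3 members lay above 1, 4 below, and S100A4 at 1. The median log2 ratio of the 8 genes was -0.023, against 0.014 over 17773 genes detected on both arrays.

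**Figure D1:**
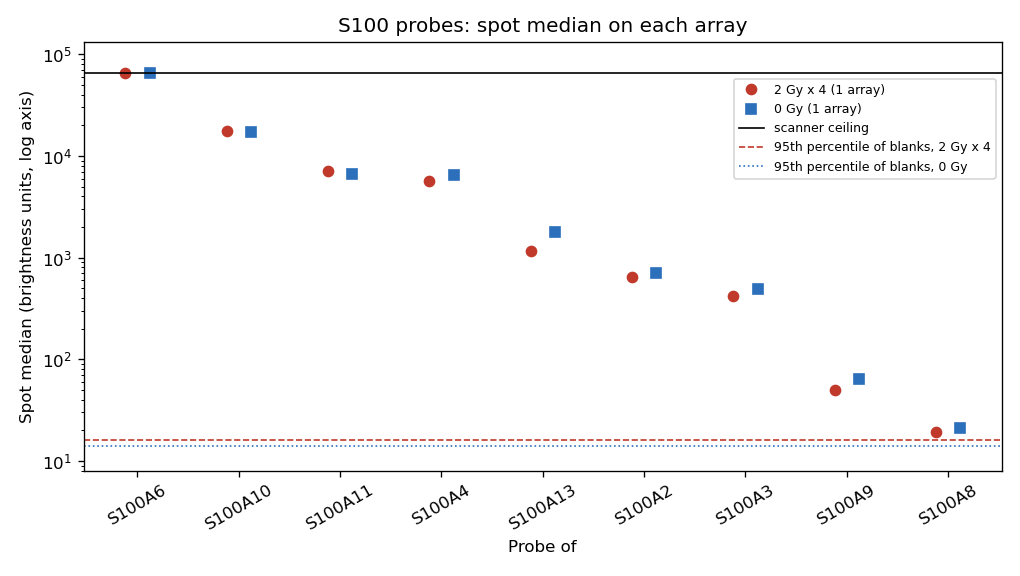
Spot median of each S100 probe in brightness units (log axis), with 2 Gy x 4 as red circles and 0 Gy as blue squares, 1 array each. The black line is the scanner ceiling and the dashed and dotted lines are the 95th percentile of blank spots, at 15.996 on the 2 Gy x 4 array and 14.2 on the 0 Gy array. S100A6 lies on the ceiling on both arrays and S100A8 just above the blank spots on both.

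S100A6 (calcyclin), which binds the calcyclin-binding protein CACYBP and annexins, had no measurable ratio. Its spot median was 65535 on the 2 Gy x 4 array and 65535 on the 0 Gy array, the ceiling of the scanner. It was the only spot at this ceiling on either array, and the next brightest spot had 63567 with 2 Gy x 4 and 62965 with 0 Gy. The probe was thus saturated on both arrays, and a change in either direction above the ceiling would not show. The series value table lists 36450 for 2 Gy x 4 and 31469 for 0 Gy. Their quotient of 1.16 comes from equal brightness readings divided by 1.80 on the 2 Gy x 4 array and 2.08 on the 0 Gy array, and is no measure of S100A6. Quantile normalization, which gives the brightest probe of each array the same value, sets the ratio to 1 in the same way. The local background beside this spot was 58209 with 2 Gy x 4 and 31190 with 0 Gy. The brightness beside a saturated spot therefore differed while the spot reading itself did not.

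S100A10 (p11) is the partner of annexin A2 in a heterotetramer at the plasma membrane and, unlike most of the family, does not need calcium to adopt its binding form. Its spot median was 17760 with 2 Gy x 4 and 17055 with 0 Gy, or 27.1% of the scanner ceiling with 2 Gy x 4 and 26.02% with 0 Gy. It ranked 92nd with 2 Gy x 4 and 114th with 0 Gy among the gene probes. The normalized signals were 18780 with 2 Gy x 4 and 15733 with 0 Gy, a ratio of 1.19, and the series value table gave 9872 with 2 Gy x 4 and 8185 with 0 Gy, a ratio of 1.21. Before any scaling the ratio was 1.04, where the median of all probes above a brightness of 8192 was 0.903. The scaled ratios are higher because the 2 Gy x 4 array was dimmer as a whole. The median gene probe was 51.9 with 2 Gy x 4 and 57.9 with 0 Gy.

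S100A11, which binds annexin A1 and takes part in plasma membrane repair, had the highest ratio of the family members followed here. Its spot median was 7187 with 2 Gy x 4 and 6657 with 0 Gy, and its rank was 210 with 2 Gy x 4 and 255 with 0 Gy. The normalized ratio was 1.24, the table ratio 1.25 and the unscaled ratio 1.08. S100A10 and S100A11 were the only members brighter with 2 Gy x 4 than with 0 Gy in the spot medians as deposited, where the saturated S100A6 had equal readings. In the RefSeq gene table of GRCh38.p14 these genes follow each other on chromosome 1 with 2 other entries between them.

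S100A4 (metastasin), which binds non-muscle myosin IIA and is known from cell motility and metastasis, had a spot median of 5619 with 2 Gy x 4 and 6491 with 0 Gy. It ranked 265 on both arrays, so quantile normalization gave it 6094 on both and a ratio of 1. The series value table gave 3118 with 2 Gy x 4 and 3111 with 0 Gy, a ratio of 1.002, while the unscaled ratio was 0.866. The median unscaled ratio of probes with a brightness from 2048 to 8192 was 0.906. Median scaling gave S100A4 a ratio of 0.934, 75th percentile scaling 0.938 and the loess curve 0.947.

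S100A13, known from the stress-induced release of FGF1 and interleukin-1 alpha, had the lowest normalized ratio. Its spot median was 1153 with 2 Gy x 4 and 1805 with 0 Gy, and its rank was 1213 with 2 Gy x 4 and 855 with 0 Gy. The normalized signals were 1261 with 2 Gy x 4 and 1760 with 0 Gy, a ratio of 0.716. The table values of 633.8 with 2 Gy x 4 and 861 with 0 Gy gave 0.736, where S100A8 was lower at 0.729. Neither ratio of S100A13 passed 1.5-fold, whereas the unscaled ratio of 0.639 did, in values where 5.32% of all detected probes were at least 1.5-fold lower and 0.344% higher. The S100A1 gene lies within the S100A13 gene on the opposite strand, and its own probe, at 92.6 with 2 Gy x 4 and 112.8 with 0 Gy, had a normalized ratio of 0.935. The neighbours on the other side, S100A14 and S100A16, had ratios of 1.04 and 0.918.

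S100A2 and S100A3 lie side by side in the cluster. S100A2, a nuclear member that binds p53, had a spot median of 640 with 2 Gy x 4 and 698 with 0 Gy. Its ratio was 1.003 in the normalized values and 1.06 in the table. S100A3, a cysteine-rich member best known from the hair cuticle, had a spot median of 423 with 2 Gy x 4 and 495 with 0 Gy, and ratios of 0.951 in the normalized values and 0.982 in the table. Both probes stood far above the blank spots, at 40.0 and 26.4 times their 95th percentile with 2 Gy x 4. In the normalized and table values both probes stayed between 0.951 and 1.06.

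S100A8 and S100A9 together form calprotectin, a zinc- and calcium-binding heterodimer that neutrophils and inflamed epithelia release. Their probes were the dimmest of the members. S100A8 had a spot median of 19.2 with 2 Gy x 4 and 21.1 with 0 Gy, or 1.20 times the 95th percentile of the blank spots with 2 Gy x 4 and 1.49 times with 0 Gy. S100A9 had 49.9 with 2 Gy x 4 and 63.2 with 0 Gy, which is 3.12 times that percentile with 2 Gy x 4 and 4.47 times with 0 Gy. S100A8 was therefore read near the floor of the array, while S100A9 lay close to the median gene probe. At both brightnesses the added constant of 50 pulls ratios towards 1. For S100A8 the normalized ratio was 0.968 and the table ratio, from values of 3.10 with 2 Gy x 4 and 4.25 with 0 Gy, was 0.729. For S100A9 these ratios were 0.926 and 0.821. In the table, probes under a brightness of 32 had ratios from 0.531 to 1.66 between their 5th and 95th percentiles, which takes in the S100A8 value. Of 7 myeloid marker genes measured, 5 were above the blank spots with 2 Gy x 4 and 6 with 0 Gy, and the leukocyte marker PTPRC was not above them on either array. CD14 was the brightest of the myeloid markers, at 280.6 with 2 Gy x 4 and 358.3 with 0 Gy. CSF3R followed, at 121.1 with 2 Gy x 4 and 143.9 with 0 Gy. The brightest probes of the 7 myeloid marker genes summed to 522 with 2 Gy x 4 and 624 with 0 Gy. Of 9 keratinocyte markers, 8 were above the blank spots on each array, with sums of 1093 with 2 Gy x 4 and 1348 with 0 Gy. Among all usable gene probes, 91.5% with 2 Gy x 4 and 93.4% with 0 Gy passed the same threshold. The counts alone therefore do not set these markers apart. The part of myeloid or keratinocyte cells or programmes in the S100A8 and S100A9 values was not tested.

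**Figure D2:**
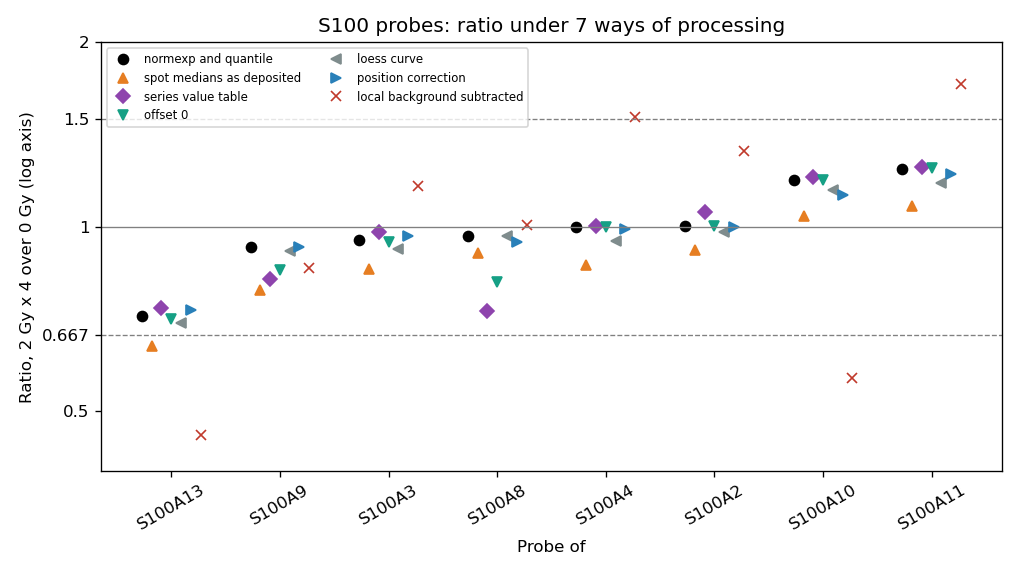
Ratio of 2 Gy x 4 over 0 Gy (log axis) for each S100 probe with a usable ratio under 7 ways of processing, 1 symbol each. The dashed lines mark 1.5-fold in either direction. Apart from the crosses (local background subtracted), the symbols stay between the lines for each probe except the unscaled S100A13 value of 0.639.

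Subtracting the local background of each spot put 4 members past 1.5-fold, more than any other setting, and it called 5.08% of all detected probes at least 1.5-fold lower and 4.50% higher. It put S100A13 at 0.457, S100A10 at 0.568, S100A4 at 1.51 and S100A11 at 1.71. The local background beside S100A10 was 15044 with 2 Gy x 4 and 10792 with 0 Gy, and beside S100A11 it was 2699 with 2 Gy x 4 and 3203 with 0 Gy. Over all spots it followed the spot brightness, with a Spearman correlation across spots of 0.928 with 2 Gy x 4 and 0.943 with 0 Gy.

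The probes covered nearly the whole brightness range of the array, so each was set against all probes of like brightness. All 8 normalized ratios lay between the 5th and 95th percentiles of their brightness class, as did all 8 unscaled and all 8 table ratios. For S100A13 the class from 512 to 2048 ran from 0.700 to 1.296 in the normalized values, with its 0.716 close to the lower end. For S100A11 and S100A4 the class from 2048 to 8192 ran from 0.709 to 1.31. For S100A10 the class above 8192, with 196 probes, ran from 0.721 to 1.25, close to its 1.19. Ratios of the brightest class were thus spread about as widely as those of the middle classes, and of all spots only S100A6 met the ceiling. The scanner read each spot at 3 gains. Among spots above 20000, values were whole numbers from 31883 upward on the 2 Gy x 4 array and from 30032 upward on the 0 Gy array, and fractional below, as readings converted from another gain may be. S100A10 and S100A11 lay below these bounds on both arrays.

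**Figure D3:**
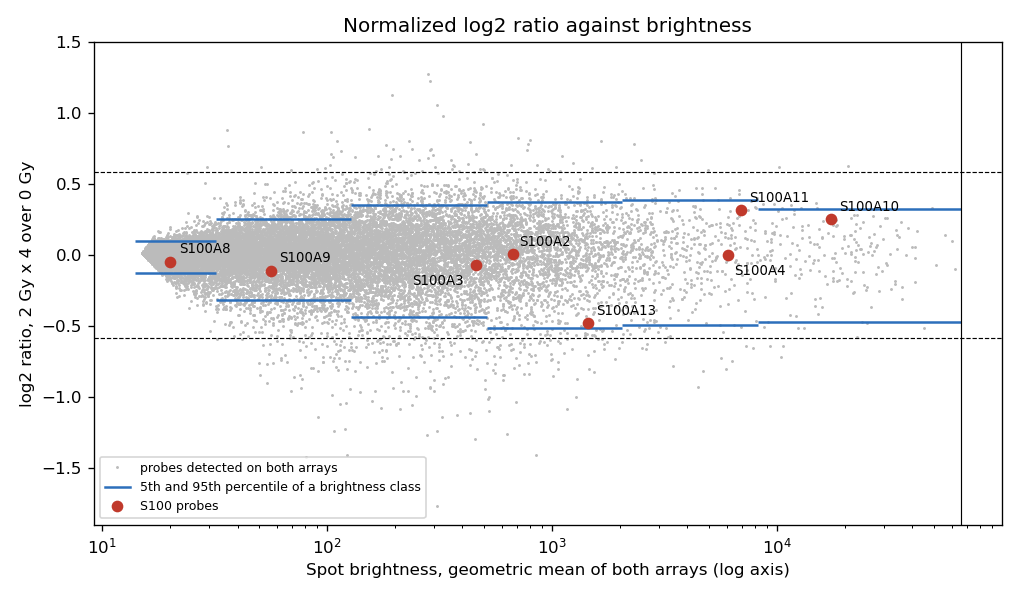
Normalized log2 ratio (2 Gy x 4 over 0 Gy) against spot brightness (log axis) for the probes detected on both arrays in grey and 8 S100 probes in red. Blue lines are the 5th and 95th percentiles of 6 brightness classes, dashed lines 1.5-fold, and the vertical line the scanner ceiling, and all red points lie between the blue lines.

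Position on the array differed between members. The chip has 104 columns, and 4.09% of the detected probes in the last 26 columns were at least 1.5-fold lower in the normalized values, against 0.054% in the first 26 columns. No S100 member lay in either strip. S100A6, S100A8 and S100A9 shared column 63, S100A2, S100A3 and S100A4 shared column 64, S100A13 lay in column 75, S100A10 in column 41 and S100A11 in column 30. In the normalized values the members with the highest ratios thus lay furthest left and the member with the lowest ratio furthest right, and ratios of all probes were also lowest in the last columns. The medians of these columns were 1.03 for column 30, 1.02 for column 41, 1.01 for columns 63 and 64 and 0.994 for column 75, a much smaller spread than that of the members. After the median of the surrounding probes had been taken off, S100A11 had a ratio of 1.22, S100A10 of 1.13 and S100A13 of 0.732. In the series value table the same correction gave 1.18 for S100A11, 1.03 for S100A10 and 0.776 for S100A13. The order of these 3 members was kept, and for S100A10 little of the table difference was left.

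**Figure D4:**
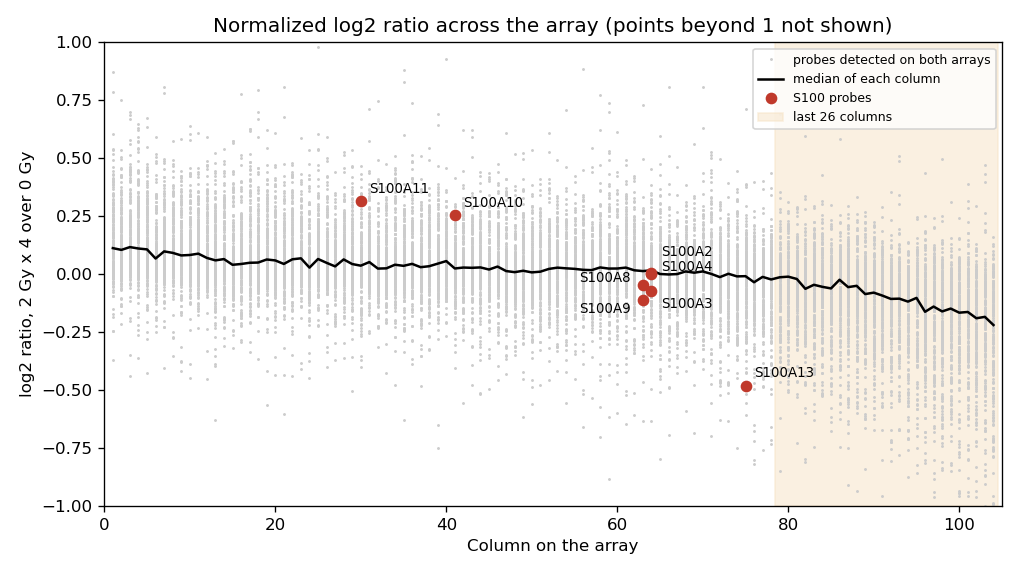
Normalized log2 ratio (2 Gy x 4 over 0 Gy) by array column for the probes detected on both arrays in grey, with the median of each column as a black line and 8 S100 probes in red. The shaded band is the last 26 columns, where the line falls below 0, and none of the 8 red points lies in it.

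The study follows Sp1, a factor that binds GC boxes, so the 250 bases before the RefSeq transcript starts (GRCh38.p14) were searched on both strands for the GC box GGGCGG, the AP-1 site TGANTCA and the TATA box TATAAA. A match is a match of letters and not a binding site. Overlapping matches of the GC box were counted separately. Genes with several starts counted once if any window held the letters. The GC box was found for 6 of the 10 members and for 46.2% of 27305 genes, the TATA box for 5 members and 13.05% of genes, and the AP-1 site for 2 members and 8.06% of genes. These 10 include S100A7, whose window held a TATA box and no GC box. S100A4 and S100A8, whose normalized ratios were 1 and 0.968, had a TATA box and no GC box, and the AP-1 site was found for S100A2 and S100A3 only. The windows of the saturated member, of the members with the highest normalized ratios and of the member with the lowest are shown, all on the minus strand of chromosome 1 and written in their own direction, with matches in capitals (CCGCCC is the GC box on the other strand).
S100A6: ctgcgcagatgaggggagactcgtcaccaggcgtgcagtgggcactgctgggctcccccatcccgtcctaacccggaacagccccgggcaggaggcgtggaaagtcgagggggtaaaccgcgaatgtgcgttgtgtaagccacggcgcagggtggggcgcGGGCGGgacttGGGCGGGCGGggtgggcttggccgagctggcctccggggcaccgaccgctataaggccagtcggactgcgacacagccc
S100A10: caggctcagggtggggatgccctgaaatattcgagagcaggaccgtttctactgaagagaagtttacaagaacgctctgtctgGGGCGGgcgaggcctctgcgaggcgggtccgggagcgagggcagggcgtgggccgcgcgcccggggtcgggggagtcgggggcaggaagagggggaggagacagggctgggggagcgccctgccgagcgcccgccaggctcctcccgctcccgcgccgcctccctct
S100A11: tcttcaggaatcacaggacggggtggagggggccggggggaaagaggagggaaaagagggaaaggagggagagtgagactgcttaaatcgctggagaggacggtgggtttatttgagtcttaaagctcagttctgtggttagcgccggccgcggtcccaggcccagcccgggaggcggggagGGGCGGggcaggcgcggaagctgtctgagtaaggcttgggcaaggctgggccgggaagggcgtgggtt
S100A13: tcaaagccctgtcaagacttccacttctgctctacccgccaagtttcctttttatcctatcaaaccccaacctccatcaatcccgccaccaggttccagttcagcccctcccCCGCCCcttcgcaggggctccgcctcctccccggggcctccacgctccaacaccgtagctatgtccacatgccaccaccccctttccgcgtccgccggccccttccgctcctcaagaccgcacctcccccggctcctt
They lie at chr1:153535992-153536241 for S100A6, chr1:151993860-151994109 for S100A10, chr1:152037005-152037254 for S100A11 and chr1:153634362-153634611 for S100A13, here the outermost of 3 annotated starts. S100A6 held 3 GC boxes and each of the other windows shown held 1. The 2 windows of S100A13 that are not shown held no GC box, and 1 of these held a TATA box. The normalized ratios of S100A10, S100A11 and S100A13 were 1.19, 1.24 and 0.716, and a link of the motif to these ratios was not tested.

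The remaining S100 genes were set beside the members. Of 10 measured, 7 were detected on both arrays, 0 passed 1.5-fold, and their median log2 ratio was 0.017. S100P, the brightest of them, lay in column 63 like S100A6 and had a spot median of 6937 with 2 Gy x 4 and 6636 with 0 Gy, a normalized ratio of 1.21 and a table ratio of 1.21. It sat with S100A10 and S100A11 among bright probes slightly above 1. S100A16 had 2569 with 2 Gy x 4 and 3183 with 0 Gy, a ratio of 0.918.

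Partners of the members were looked at by list, beside 178 of 17773 detected genes at least 1.5-fold lower and 54 higher in the normalized values, and 1156 lower and 706 higher in the series value table. Of all these genes, 9831 had normalized ratios above 1 and 7926 below. Counts are of normalized values unless the table is named. Among 10 annexin-related genes 0 passed 1.5-fold, also in the table, and the median log2 ratio was 0.064. ANXA2, the S100A10 partner, had a spot median of 12367 with 2 Gy x 4 and 13424 with 0 Gy and a normalized ratio of 1.13. ANXA1, the S100A11 partner, had 1.22 over 2 probes, at 1.38 for the brighter and 1.09 for the other. The ANXA2 probe lay in column 7 and the brighter ANXA1 probe in column 20. In the first 26 columns the median ratio of all detected probes was 1.05. With the surrounding median taken off, the ANXA2 probe had 1.08 and the brighter ANXA1 probe 1.29. In the table the ratio of ANXA2 was 1.07. ANXA6 had 0.700 and ANXA5 0.766 over 2 probes, so the ratios of the annexin genes named here, averaged over their probes, ran from 0.700 to 1.22. Of 6 genes of the plasmin system, part of which S100A10 recruits to the cell surface, all 6 had ratios below 1 and 0 passed 1.5-fold. PLG, which encodes plasminogen, was past it in the table, at 0.623 over 2 dim probes that disagreed. One, in column 5, had 28.1 with 2 Gy x 4 and 26.7 with 0 Gy and a table ratio of 1.15, and the other, in column 103, had 23.1 with 2 Gy x 4 and 44.4 with 0 Gy and a table ratio of 0.337. The lowest normalized ratio was PLAUR, the urokinase receptor gene, at 0.805, with 840 with 2 Gy x 4 and 1159 with 0 Gy.

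Of 24 genes for intracellular partners, 17 had ratios above 1 and 7 below. MYH9, the heavy chain that S100A4 binds, had a ratio of 1.23, and CACYBP, the partner of S100A6, 0.908 over 2 probes that disagreed, at 0.796 for the brighter and 1.04 for a dim one. The only gene of this list past 1.5-fold, in the normalized values and in the table, was ACTN1, which encodes alpha-actinin 1, with 499.6 with 2 Gy x 4 and 893.5 with 0 Gy and a ratio of 0.633. Its probe lay in column 78, and with the surrounding median taken off the ratio was 0.676, short of 1.5-fold. FABP5 was next lowest, at 0.673 in the normalized values and 0.668 in the table, averaged over 2 probes. Its brighter probe alone was past 1.5-fold, at 0.621 and 0.629, and the other had 0.730 and 0.710. The brighter probe lay in column 87 and had 0.684 with the surrounding median taken off. The highest normalized ratio of this list was STIP1, at 1.38. Of 6 detected genes for receptors and surface partners, 0 passed 1.5-fold. AGER, which encodes RAGE, was dim, at 21.5 with 2 Gy x 4 and 17.8 with 0 Gy, and its ratio was 1.06 in the normalized values but 1.66 in the table, past 1.5-fold there. Of 19 detected genes for EF-hand proteins outside the family 0 passed 1.5-fold, but 2 were at least 1.5-fold lower in the table. CHP1, the lowest of them, had 26.9 with 2 Gy x 4 and 62.2 with 0 Gy, a normalized ratio of 0.681 and a table ratio of 0.308. The CHP1 probe lay in column 104, and with the surrounding median taken off its normalized ratio was 0.807. PVALB, which encodes parvalbumin, had 0.931 in the normalized values and 0.585 in the table. Of 5 detected genes for fused-type S100 proteins and their cluster neighbours 0 passed 1.5-fold in the normalized values. The lowest was IVL, which encodes involucrin, at 0.676, with 0.507 in the table, past 1.5-fold there. The IVL probe lay in column 95, and with the surrounding median taken off its normalized ratio was 0.749.

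The label of the cell line was set against its markers. Of 8 mesenchymal-like markers 8 were above the blank spots on each array. VIM, which marks mesenchymal-like cells, had 26732 with 2 Gy x 4 and 28208 with 0 Gy on its brightest probe. SPARC of the same list was dim, at 21.8 with 2 Gy x 4 and 26.1 with 0 Gy, and EGFR had 62.9 with 2 Gy x 4 and 70.1 with 0 Gy. Of 9 luminal and receptor markers measured, 7 were above the blank spots with 2 Gy x 4 and 8 with 0 Gy. ESR1, the oestrogen receptor gene absent from triple-negative lines, was not above the blank spots on either array, at 13.3 with 2 Gy x 4 and 13.4 with 0 Gy. PGR was above the blank spots with 0 Gy only, at 14.7 on its brighter probe there. ERBB2 was above them on both arrays, at 70.9 with 2 Gy x 4 and 70.1 with 0 Gy. So were GATA3, at 97.3 with 2 Gy x 4 and 88.7 with 0 Gy, and FOXA1, at 124.3 with 2 Gy x 4 and 149.0 with 0 Gy. The luminal keratin gene KRT19 was bright, at 1778 with 2 Gy x 4 and 2248 with 0 Gy. KRT18 had 5415 with 2 Gy x 4 and 6416 with 0 Gy on the brightest of its 3 probes. Its other probes were much dimmer, at 74.5 and 28.0 with 2 Gy x 4 and at 82.8 and 25.8 with 0 Gy. CDH1 was above the blanks, at 154.7 with 2 Gy x 4 and 179.3 with 0 Gy. Of the 24456 usable gene probes, 91.5% with 2 Gy x 4 and 93.4% with 0 Gy were brighter than 95% of the blanks of their array.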

How the data were processed

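Total RNA was amplified, labelled with Cy5 and hybridised to a 1-colour Toray 3D-Gene Human oligo chip, 1 array per condition. The authors deposited a scanner file per array, with spot intensities on a linear scale as the median of each spot, neither background-subtracted nor scaled, and a table of processed intensities with no statement found of how it was made. By comparison with the scanner files, the table equals the spot median minus a trimmed blank mean, divided so that each array's median is 25, within 0.485% for values above 10. Main values were made in R 4.3.3 with limma 3.58.1, using normexp (offset 50) on the median spot intensity and quantile normalization. Gene averages were taken on the log2 scale over probes above the 95th percentile of blanks on at least 1 array. Other steps used Python 3.11.15, numpy 2.4.6 and pandas 2.3.3. Probes were named through the platform annotation and the RefSeq gene table of GRCh38.p14, and 1796 stayed unnamed. The call was a size rule of 1.5-fold, with no test. For the position correction, the median log2 ratio was subtracted within 11 rows and 8 columns of a probe. Named genes were all member probes and, of each list, up to 4 genes with the largest differences, of which not all are given, plus partner genes of the members and marker genes that check the cell line. Of these, MYH9, CACYBP, S100A14, PLG, PVALB, KRT18, KRT19, SPARC, EGFR, PGR, ERBB2, GATA3, FOXA1, CD14 and CSF3R were named after their values had been seen. Members and lists were chosen with earlier results of these data known. The steps were tested on simulated data. The number of arrays limits the precision.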

Additional observations from a re-analysis of the deposited data

How the results depend on the processing

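The counts of 0 members at least 1.5-fold lower and 0 higher held with no background correction, with offset 0, with loess, median or 75th percentile normalization, and with the series value table, both position corrections, both filters on dim probes and the 2-fold rule. The spot medians as deposited gave 1 member lower (S100A13). Subtracting the local background gave 2 lower (S100A13 at 0.457 and S100A10 at 0.568, a log2 ratio of -0.82) and 2 higher (S100A11 at 1.71 and S100A4 at 1.51), turned S100A10 to a ratio below 1, and gave a median log2 ratio of 0.12. Without that setting the ratio of S100A13 ranged from 0.639 to 0.776, that of S100A11 from 1.08 to 1.25, that of S100A10 from 1.03 to 1.21 and that of S100A8 from 0.687 to 1.03. In the same settings the ratio of S100A4 ranged from 0.866 to 1.002. The median of the members lay between -0.17 (spot medians as deposited) and 0.00071 (series value table with position correction). The medians of the partner lists stayed short of 1.5-fold in the table and with the position correction, though ACTN1, AGER, PLG, PVALB, CHP1 and IVL passed it singly in the table. The cause of these differences was not tested. Depth is set by the blank spots for S100A8 and by the scanner ceiling for S100A6.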
